A study of Homo sapiens with 12 samples.

Results

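Kruppel-like factors (KLFs) are transcription factors that bind GC-rich and CACCC sequences in promoters through zinc fingers at the C-terminal end of the protein. Their messages are made and removed quickly, and several members are early response genes of growth factor, stress and hormone signals. KLF2, KLF4, KLF5, KLF6 and KLF7 mainly activate transcription, whereas KLF9, KLF10, KLF11, KLF13 and KLF16 can bind the SIN3A corepressor and are best known as repressors. These 10 genes were chosen by symbol, with earlier results of these data known, from the 20263 genes of an RNA-seq table. All 10 passed the filter on low counts. The other 8 KLF genes of the table are given separately, and counts over the 10 do not stand for the whole family. They were measured in A375, an established line from a human malignant melanoma, labelled wild type. The 4 groups of 3 samples were untreated cells (Ctrl), cells treated with the compound the labels call DBIC, cells treated with hemin, and cells treated with both (DBIC+Hemin). The study's text calls the compound DdBIC, dodecyl 1H-benzo[d]imidazole-5-carboxylate, and describes it as a ligand of the nuclear receptor Nur77. Hemin is the oxidised, ferric form of heme, which cells take up. Dose and duration of these treatments were not given in the sources used here, and the methods state that serum was lowered during treatment with the compound. The question the design addresses is how DBIC changed the transcriptome and how far added hemin changed that response.

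The libraries held 37951275 to 44358912 counts, and 3 counts, the limit that a count of 0 allows, came to at most 0.0784 CPM (a gene's count scaled to a common library size). Replicate libraries correlated at 0.985 to 0.988 across genes. HMOX1, the heme oxygenase that hemin induces, was at 7.26 to 9.19 CPM in the libraries without hemin, at 61.9 to 65.5 CPM with hemin and at 146 to 188 CPM with both agents. SOX10, a neural crest and melanocyte lineage factor, was at 548 to 769 CPM in the 12 libraries and MITF at 8.31 to 21.5 CPM, while the pigment enzyme TYR did not exceed 0.0512 CPM. The summed level of the 8 melanocyte lineage markers was 643 to 670 CPM in Ctrl and 736 to 797 CPM with DBIC, and nearly all of it was SOX10. The markers did not move alike with DBIC. SOX10 had a log2 fold change of 0.23 (adjusted p = 0.00254 by edgeR) and PMEL one of 0.90 (adjusted p = 0.0275), whereas S100B fell by 0.36 (adjusted p = 0.021) and MITF, MLANA and DCT were not called, with a list median of 0.021. PMEL was at a low level, 0.409 to 0.496 CPM in Ctrl and 0.590 to 1.11 CPM with DBIC. The 5 immune markers summed to 2.15 to 3.31 CPM over all libraries, with PTPRC at 0 throughout. The 4 endothelial markers summed to 4.74 to 6.95 CPM, and their sums overlapped between Ctrl and DBIC. Of these CDH5 was called higher with DBIC (log2 fold change 2.14, adjusted p = 0.0211), at 0.541 to 0.695 CPM against at most 0.248 CPM in Ctrl. The 5 keratinocyte markers summed to 53.1 to 56.4 CPM in Ctrl and 59.0 to 66.1 CPM with DBIC, nearly all of it KRT10 (0.20, adjusted p = 0.0396), while KRT5 did not exceed 0.0247 CPM in any library. The 4 epithelial markers summed to 854 to 903 CPM in Ctrl and 961 to 983 CPM with DBIC. Of these KRT18 was higher with DBIC (0.24, adjusted p = 5.75e-05) and KRT8 lower (-0.15, adjusted p = 0.0191), while EPCAM and CDH1 did not exceed 0.246 and 0.0989 CPM. Some markers also moved when both agents were compared with DBIC alone. SOX10 was lower (-0.31, adjusted p = 0.000352 by edgeR), as were KRT10 (-0.22, adjusted p = 0.03) and KRT18 (-0.16, adjusted p = 0.00143). KRT8 was higher (0.19, adjusted p = 0.00686), and the other markers tested were not called. The part of these markers in the KLF results was not tested. The labels do not say that replicates came from separate cultures, so the p-values measure only the spread between these samples.

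In untreated cells KLF5 had the highest level of the 10 genes per transcript length, with a mean of 54.4 TPM (counts scaled by length to one sum in every library). It was followed by KLF6 at 43.0 TPM, KLF9 at 39.3 TPM, KLF10 at 22.5 TPM, KLF16 at 22.3 TPM, KLF2 at 17.0 TPM, KLF13 at 14.4 TPM, KLF4 at 11.2 TPM, KLF11 at 8.84 TPM and KLF7 at 4.39 TPM. The libraries of KLF10 and KLF16 overlapped, and no other neighbours in this order did. With DBIC the order was KLF5 at 228 TPM, KLF6 at 134 TPM, KLF10 at 92.1 TPM, KLF9 at 55.4 TPM, KLF2 at 37.7 TPM, KLF4 at 34.8 TPM, KLF16 at 23.7 TPM, KLF13 at 13.1 TPM, KLF7 at 11.8 TPM and KLF11 at 10.3 TPM. KLF10 had moved above KLF9, and only KLF2 and KLF4 overlapped. The 10 genes together came to 234 to 242 TPM in the Ctrl libraries, 640 to 644 TPM with DBIC, 236 to 237 TPM with hemin and 327 to 339 TPM with both. The ratio of count to FPKM, divided in each library by its median over 10121 genes well counted in every library so that depth drops out, differed between libraries by a factor of 1.231 for KLF7 and 1.136 for KLF4, against a median of 1.094 over those genes, so the TPM of KLF7 in particular may carry differences in the length behind its FPKM.

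**Figure D1:**
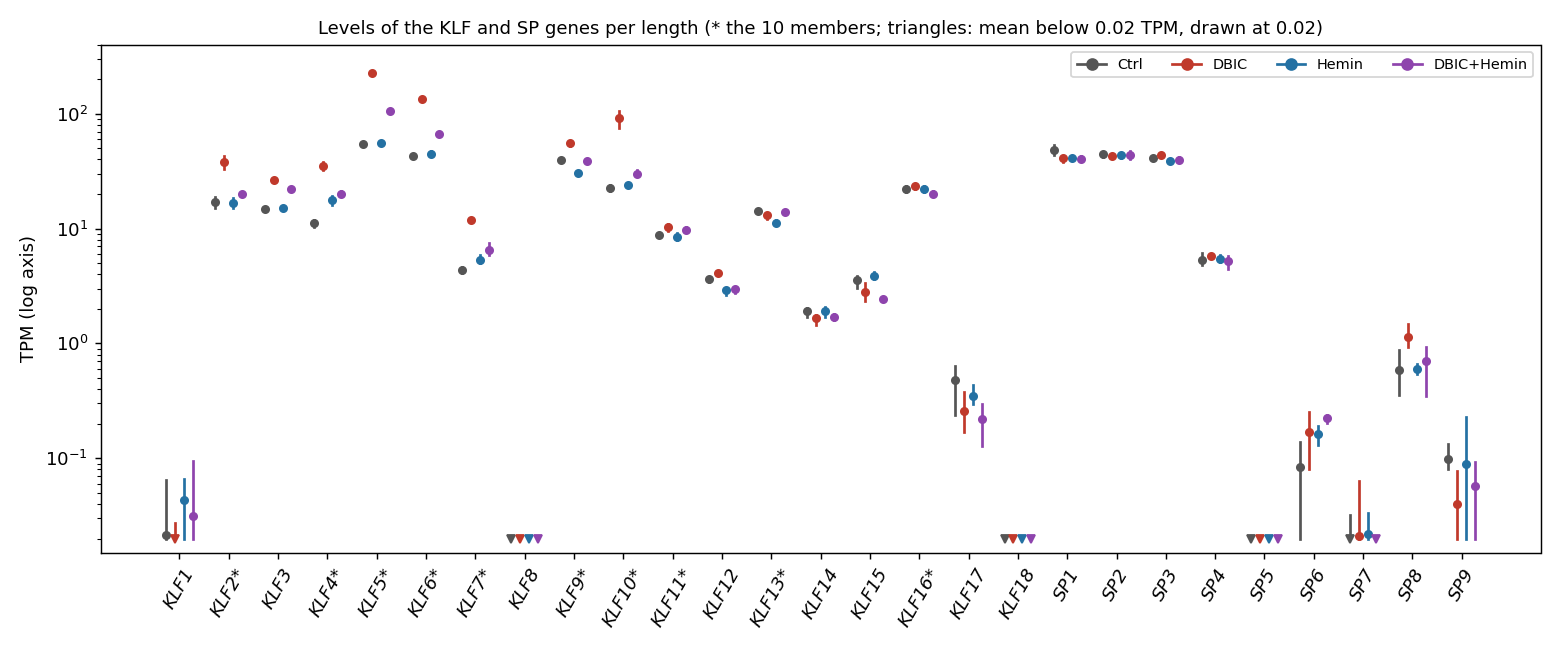
Mean level of the 18 KLF and 9 SP genes in TPM (vertical log axis) in each of the 4 groups, with lines from the lowest to the highest of 3 libraries and asterisks on the 10 members. KLF5, KLF6 and KLF10 are the KLF genes with the highest levels under DBIC.

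Promoter windows of RefSeq on GRCh38.p14 were available for 9 of the 10 genes, with 14 windows in all since several genes have more than 1 start site. Each window runs from 250 bases before to 50 after a RefSeq start site. The windows of KLF4 (a gene that rose with DBIC and with hemin), KLF6 (a strong and even rise), KLF7 (the window with a serum response motif), KLF11 (the window with a full cyclic AMP response element) and KLF13 (no called rise) are shown up to the base before the first annotated exon. They are chr9:107489770-107490019 on the minus strand, chr10:3785282-3785459 on the minus strand, chr2:207167268-207167496 on the minus strand, chr2:10043971-10044174 on the plus strand and chr15:31326585-31326834 on the plus strand. None of these bases is exonic in GENCODE 29. The KLF4 and KLF11 windows lie within the span given for their gene, which starts farther upstream. The other 3 windows lie outside the span given for their gene. Whether other genes span these bases was not tested. Capitals mark matches on either strand to any of the 9 motifs searched.
KLF4: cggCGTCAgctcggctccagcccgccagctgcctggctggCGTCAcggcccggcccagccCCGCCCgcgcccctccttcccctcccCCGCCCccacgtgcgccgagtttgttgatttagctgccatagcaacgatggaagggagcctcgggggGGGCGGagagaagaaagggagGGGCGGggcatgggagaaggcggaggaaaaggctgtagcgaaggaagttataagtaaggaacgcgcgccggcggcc
KLF6: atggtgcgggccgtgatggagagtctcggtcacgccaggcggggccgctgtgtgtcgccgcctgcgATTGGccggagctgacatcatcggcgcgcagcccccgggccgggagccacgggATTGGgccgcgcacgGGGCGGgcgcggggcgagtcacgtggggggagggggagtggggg
KLF7: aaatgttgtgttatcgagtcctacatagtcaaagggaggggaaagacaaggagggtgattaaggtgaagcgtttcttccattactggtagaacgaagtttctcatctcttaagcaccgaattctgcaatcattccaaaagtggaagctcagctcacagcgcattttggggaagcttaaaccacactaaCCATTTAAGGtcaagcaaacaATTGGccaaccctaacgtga
KLF11: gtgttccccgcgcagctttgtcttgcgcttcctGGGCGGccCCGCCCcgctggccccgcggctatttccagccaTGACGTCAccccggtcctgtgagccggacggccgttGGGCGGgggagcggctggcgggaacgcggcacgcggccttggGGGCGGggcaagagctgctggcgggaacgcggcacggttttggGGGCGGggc
KLF13: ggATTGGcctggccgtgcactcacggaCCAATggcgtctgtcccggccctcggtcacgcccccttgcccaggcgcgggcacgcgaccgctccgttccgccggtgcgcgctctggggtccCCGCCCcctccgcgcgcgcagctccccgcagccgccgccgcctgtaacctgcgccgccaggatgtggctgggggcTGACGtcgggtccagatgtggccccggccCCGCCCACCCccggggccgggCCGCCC

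The motifs were the cyclic AMP response element (CRE) TGACGTCA, its core TGACG, the AP-1 site TGACTCA, the C/EBP-ATF composite TGATGNAA, the GC box GGGCGG, the CACCC box CCACCC, the TATA box TATAAA, the CCAAT box CCAAT and the serum response CArG box. Every full CRE also contains the CRE core on both strands. The GC box matched in 9 of the 14 windows (64.3%), from 8 of the 9 genes, and in 45.0% of all 35116 windows. KLF9 was the gene without one. The CRE core matched in 5 of the 14 windows (35.7%), from KLF4, KLF5, KLF11, KLF13 and KLF16, and in 24.6% of all windows. Windows of the same gene are not independent. The full CRE matched in 1 window, of KLF11, against 1.85% of all windows. The CCAAT box matched in 6 of the 14 windows (42.9%), from KLF5, KLF6, KLF7, KLF9 and KLF13, against 34.6% of all windows. The CACCC box matched in 2 (14.3%), from KLF7 and KLF13, against 34.3%. The CArG box matched in 1 window of KLF7 (1.29% of all windows), the C/EBP-ATF composite in another of KLF7 (3.62%) and the TATA box in 1 of KLF5 (11.5%). The AP-1 letters were in none of the 14 windows (4.95% of all windows). The windows of KLF4 and KLF16, of which KLF4 rose with DBIC and KLF16 was not called, both held 2 CRE cores and several GC boxes, and no motif searched was shared by all 7 members that rose and have a window.

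The response to DBIC was tested on the counts of all 14287 genes that passed the filter. In the comparison of DBIC with Ctrl, 8 of the 10 KLF genes rose and 0 fell. Over all genes tested 20.0% rose and 17.2% fell. The median log2 fold change was 1.33 over the 10 genes and -0.0082 over all genes tested. Higher genes made up 53.8% of all called, and 40.0% with upper-quartile scaling, where the 8 KLF genes stayed called as higher. In bulk RNA, fewer cells of a type and less RNA per cell cannot be told apart.

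KLF5, which drives proliferation of crypt and basal epithelial cells, had the highest log2 fold change with DBIC, ahead of KLF10 by less than their errors, and the order turned without DBIC replicate 1 (2.04 for KLF5 and 2.16 for KLF10). Its level was 92.0, 93.6 and 93.9 CPM in the Ctrl libraries and 406, 399 and 370 CPM with DBIC. It was 93.9, 98.6 and 97.7 CPM with hemin and 183, 178 and 190 CPM with both. The libraries with both agents lay between Ctrl and DBIC with no overlap on either side. The rise with DBIC was 4.20-fold, a log2 fold change of 2.07 (SE 0.040, n = 3 per group, edgeR quasi-likelihood test, adjusted p = 1.43e-10).

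KLF6, a broadly expressed early response gene and growth regulator, was at 86.9, 89.1 and 89.7 CPM in Ctrl and at 286, 283 and 286 CPM with DBIC. With hemin it was at 94.2, 87.4 and 97.0 CPM and with both at 140, 146 and 146 CPM. Its DBIC libraries were the most alike of the 10 genes relative to the mean. The log2 fold change with DBIC was 1.69 (SE 0.038, adjusted p = 2.02e-10 by edgeR), a 3.22-fold rise.

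KLF2 and KLF4 are the flow-induced KLFs of endothelium, and KLF4 is also a factor of stem cell reprogramming and of the skin barrier. KLF2 was at 14.6, 18.5 and 16.5 CPM in Ctrl, 41.5, 32.4 and 35.9 CPM with DBIC, 16.1, 17.5 and 14.8 CPM with hemin and 20.7, 18.2 and 20.2 CPM with both. KLF4 was at 15.3, 12.7 and 14.2 CPM in Ctrl, 48.5, 41.9 and 44.2 CPM with DBIC, 21.4, 19.0 and 22.4 CPM with hemin and 24.9, 24.8 and 24.9 CPM with both. For KLF2 the group with both overlapped Ctrl, whereas for KLF4 each of the 4 groups was apart from the others. The log2 fold change with DBIC was 1.15 for KLF2 (SE 0.11, adjusted p = 1.2e-05 by edgeR). It was 1.67 for KLF4 (SE 0.083, adjusted p = 6.3e-08 by edgeR).

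KLF7, known for axon growth in neurons, was at 12.1, 11.7 and 11.98 CPM in Ctrl. It was at 35.6, 32.5 and 34.1 CPM with DBIC, 13.9, 14.9 and 16.0 CPM with hemin and 18.1, 14.8 and 20.9 CPM with both. The library with both agents numbered 2 lay within the hemin range and the other libraries of that group above it. The log2 fold change with DBIC was 1.52 (SE 0.11, adjusted p = 1.01e-06 by edgeR), a 2.86-fold rise.

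**Figure D2:**
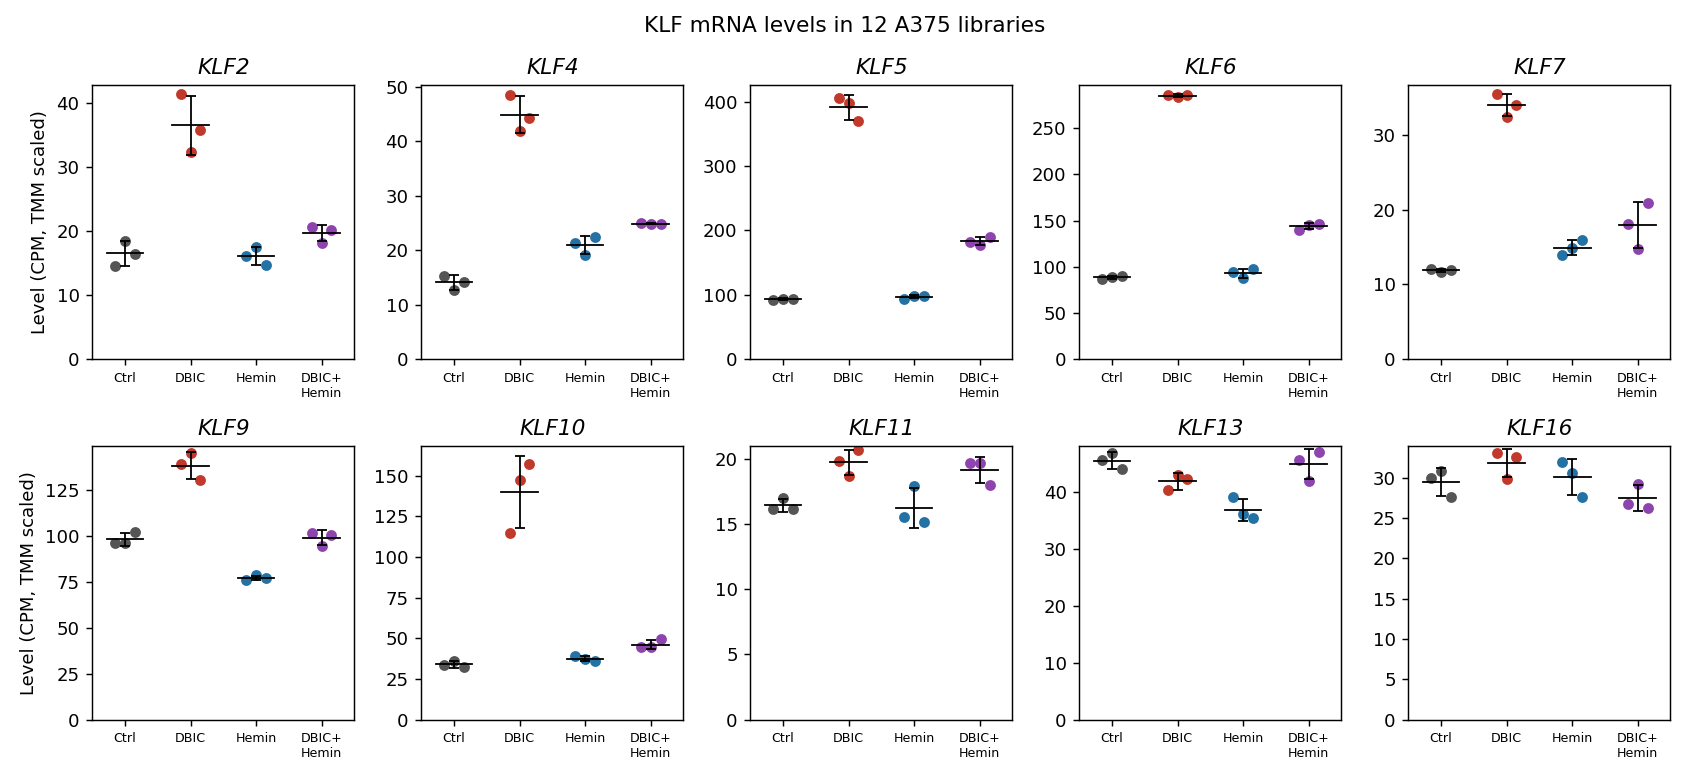
Level of each KLF gene in CPM (vertical axis, from 0) in the 12 libraries, with a horizontal line at the group mean and error bars of 1 SD (n = 3). DBIC points stand above the other groups for KLF2, KLF4, KLF5, KLF6, KLF7, KLF9 and KLF10, and the KLF10 points spread from 115 to 157 CPM.

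Among the SIN3A-binding members, KLF10 rose about as much as KLF5. KLF10 and KLF11 were described as early genes of TGF-beta signalling. KLF10 was at 33.7, 36.4 and 32.1 CPM in Ctrl, 115, 147 and 157 CPM with DBIC, 39.2, 37.6 and 36.1 CPM with hemin and 44.5, 44.5 and 49.5 CPM with both. The DBIC libraries of KLF10 differed more than those of any other member, with an SD of 22.1 CPM, and all 3 lay above every other library. The log2 fold change with DBIC was 2.04 (SE 0.10, adjusted p = 1.11e-07 by edgeR) and stayed between 1.94 and 2.16 when single libraries were left out. KLF11 was at 16.1, 17.0 and 16.1 CPM in Ctrl and 19.8, 18.7 and 20.6 CPM with DBIC, against 15.5, 17.9 and 15.2 CPM with hemin and 19.7, 19.7 and 17.9 CPM with both. Its log2 fold change with DBIC was 0.26 (SE 0.073, adjusted p = 0.0149 by edgeR), and without DBIC replicate 3 it was 0.23 with an adjusted p of 0.0589. KLF11 shares up to 416 exon bases with AC104794.4 and KLF16 up to 431 with AC012615.3, both on the opposite strand, and the use of strand in counting is not given in the sources used here.

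KLF9, a gene induced by glucocorticoids and thyroid hormone, was at 96.0, 96.2 and 102 CPM in Ctrl and 139, 145 and 130 CPM with DBIC. It was at 76.1, 78.4 and 77.0 CPM with hemin and 102, 94.2 and 101 CPM with both. Hemin libraries lay below, and DBIC libraries above, all others, while Ctrl and the group with both overlapped. The rise with DBIC was 1.41-fold, a log2 fold change of 0.49 (SE 0.045, adjusted p = 8.55e-06 by edgeR).

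KLF13, which regulates chemokine expression in T cells, was at 45.5, 46.9 and 44.0 CPM in Ctrl, 40.3, 43.0 and 42.2 CPM with DBIC, 39.1, 36.1 and 35.4 CPM with hemin and 45.6, 42.0 and 47.0 CPM with both. Its DBIC libraries lay below all Ctrl libraries, with a log2 fold change of -0.12 (SE 0.055, adjusted p = 0.111 by edgeR) that did not pass the threshold. With upper-quartile scaling the value was -0.18 (adjusted p = 0.0254 by edgeR). KLF16, a repressor studied in dopamine receptor promoters, was at 29.9, 30.9 and 27.6 CPM in Ctrl, 33.1, 29.8 and 32.5 CPM with DBIC, 31.9, 30.6 and 27.6 CPM with hemin and 26.8, 29.3 and 26.2 CPM with both. Its log2 fold change with DBIC was 0.11 (adjusted p = 0.256 by edgeR, interval -0.046 to 0.27), with overlapping libraries.

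**Figure D3:**
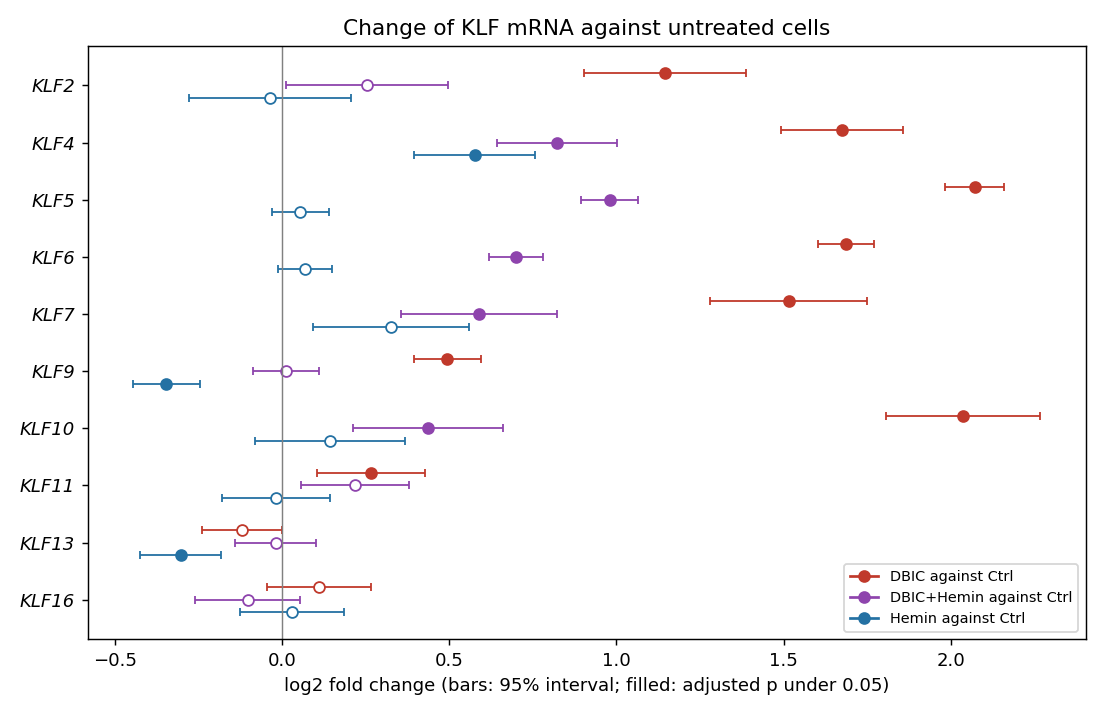
log2 fold change against Ctrl (horizontal axis) of each KLF gene with DBIC, with both agents and with hemin, with 95% intervals as bars and filled points where the adjusted p was under 0.05. The DBIC values of KLF5 and KLF10 are 2.07 and 2.04, and their values with both agents are 0.98 and 0.44.

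Cells given both agents were compared with cells given DBIC alone. Here 0 of the 10 KLF genes rose and 8 fell, where 13.5% of all genes tested rose and 18.4% fell. The median log2 fold change was -0.87 over the 10 genes and -0.010 over all genes tested. Higher genes made up 42.4% of all called, and 59.2% with upper-quartile scaling. KLF10 fell most, by 1.60 on the log2 scale (SE 0.10, adjusted p = 9.62e-07 by edgeR). KLF5 fell by 1.09 (SE 0.039, adjusted p = 1.12e-08) and KLF6 by 0.99 (SE 0.037, adjusted p = 1.47e-08). KLF7 fell by 0.93, KLF2 by 0.89 and KLF4 by 0.85, with adjusted p-values of 6.13e-05, 0.000106 and 1.58e-05 by edgeR. KLF9 fell by 0.48 (adjusted p = 1.52e-05). The groups of these 7 genes did not overlap. KLF16 fell by 0.21 (adjusted p = 0.0406), a call lost with upper-quartile scaling (adjusted p = 0.12), with only the groups compared in the fit (0.0732) and without any 1 of Ctrl 1, DBIC 1, DBIC 3, Hemin 2, DBIC+Hemin 1 or DBIC+Hemin 3 (0.0534 to 0.133). KLF11 had a log2 fold change of -0.046 (adjusted p = 0.685, interval -0.21 to 0.12). KLF13 had one of 0.10 (adjusted p = 0.193), and 0.16 with upper-quartile scaling (adjusted p = 0.0472).

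Fewer of these genes were called with hemin alone than with DBIC. Against Ctrl, 1 of the 10 rose and 2 fell, where 1.47% of all genes tested rose and 2.59% fell. These shares rest on 580 called genes, a count of 272 without Hemin replicate 2 and of 881 with DESeq2. KLF4 rose by a log2 fold change of 0.58, 1.49-fold (SE 0.082, adjusted p = 0.00271 by edgeR). KLF9 fell by 0.35 on the log2 scale (SE 0.045, adjusted p = 0.00191) and KLF13 by 0.30 (SE 0.055, adjusted p = 0.0109). The KLF13 call was lost without Hemin replicate 2 (adjusted p = 0.0564) and without Hemin replicate 3 (adjusted p = 0.0506). All 3 genes had hemin libraries apart from the Ctrl libraries. KLF7 had a log2 fold change of 0.33 (adjusted p = 0.132 by edgeR), also without overlap, and passed the threshold when DBIC+Hemin replicate 2 was left out (adjusted p = 0.0358). The remaining 6 genes had log2 fold changes from -0.036 for KLF2 to 0.14 for KLF10, with adjusted p-values of 0.405 or more and overlapping libraries.

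With both agents, 5 of the 10 KLF genes were above Ctrl and 0 below, where 5.66% of all genes tested were higher and 6.74% lower. Higher genes made up 45.6% of all called, and 34.4% when libraries were scaled by size only. KLF5 was 1.97-fold higher than Ctrl (log2 fold change 0.98, adjusted p = 2.4e-07 by edgeR), KLF4 1.77-fold (0.82, adjusted p = 7.8e-05), KLF6 1.62-fold (0.70, adjusted p = 1.34e-06) and KLF7 1.505-fold (0.59, adjusted p = 0.00403). KLF10 was 1.35-fold higher (0.44, adjusted p = 0.0175), a call lost without Ctrl replicate 1 (0.0591), Ctrl replicate 3 (0.0724) or DBIC+Hemin replicate 3 (0.063). KLF2 had a log2 fold change of 0.25 (adjusted p = 0.176, interval 0.011 to 0.49) with overlapping libraries. KLF9 had one of 0.011 (adjusted p = 0.915, interval -0.088 to 0.11). KLF11 had one of 0.22 (adjusted p = 0.0803) with no overlap, and passed the threshold without Hemin replicate 2 (adjusted p = 0.0441). KLF13 and KLF16 had values of -0.019 and -0.10 (adjusted p = 0.877 and 0.414). These comparisons share the Ctrl or the DBIC libraries and are not independent of each other.

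The interaction asks whether the DBIC effect with hemin differed from the DBIC effect without it. It was negative and past the threshold in 6 of the 10 KLF genes and positive in 1, where 10.2% of all genes tested were negative and 6.40% positive. The share of positive values among all called was 38.5%, and 55.4% with upper-quartile scaling. The value was -1.74 for KLF10 (SE 0.14, adjusted p = 1.62e-05 by edgeR), -1.43 for KLF4 (SE 0.12, adjusted p = 1.17e-05) and -1.25 for KLF7 (SE 0.15, adjusted p = 0.00021). It was -1.15 for KLF5 (SE 0.055, adjusted p = 3.03e-07), -1.06 for KLF6 (SE 0.052, adjusted p = 3.9e-07) and -0.86 for KLF2 (SE 0.16, adjusted p = 0.00316). For KLF4, hemin alone raised the level and hemin with DBIC went with a lower level than DBIC alone. KLF13 had a value of 0.40 (SE 0.078, adjusted p = 0.00455). Its level was lower than Ctrl with hemin alone and overlapped Ctrl with both. The log2 fold change of KLF13 with DBIC, -0.12 and not called, also enters this difference. KLF9 fell with hemin both in the absence and in the presence of DBIC, and its interaction was -0.14 (adjusted p = 0.192, interval -0.28 to 0.0052). The values were -0.028 for KLF11 (adjusted p = 0.9, interval -0.26 to 0.20) and -0.24 for KLF16 (adjusted p = 0.135). All 7 calls were kept in each of the 12 fits without a library and in the 6 other alternatives.

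**Figure D4:**
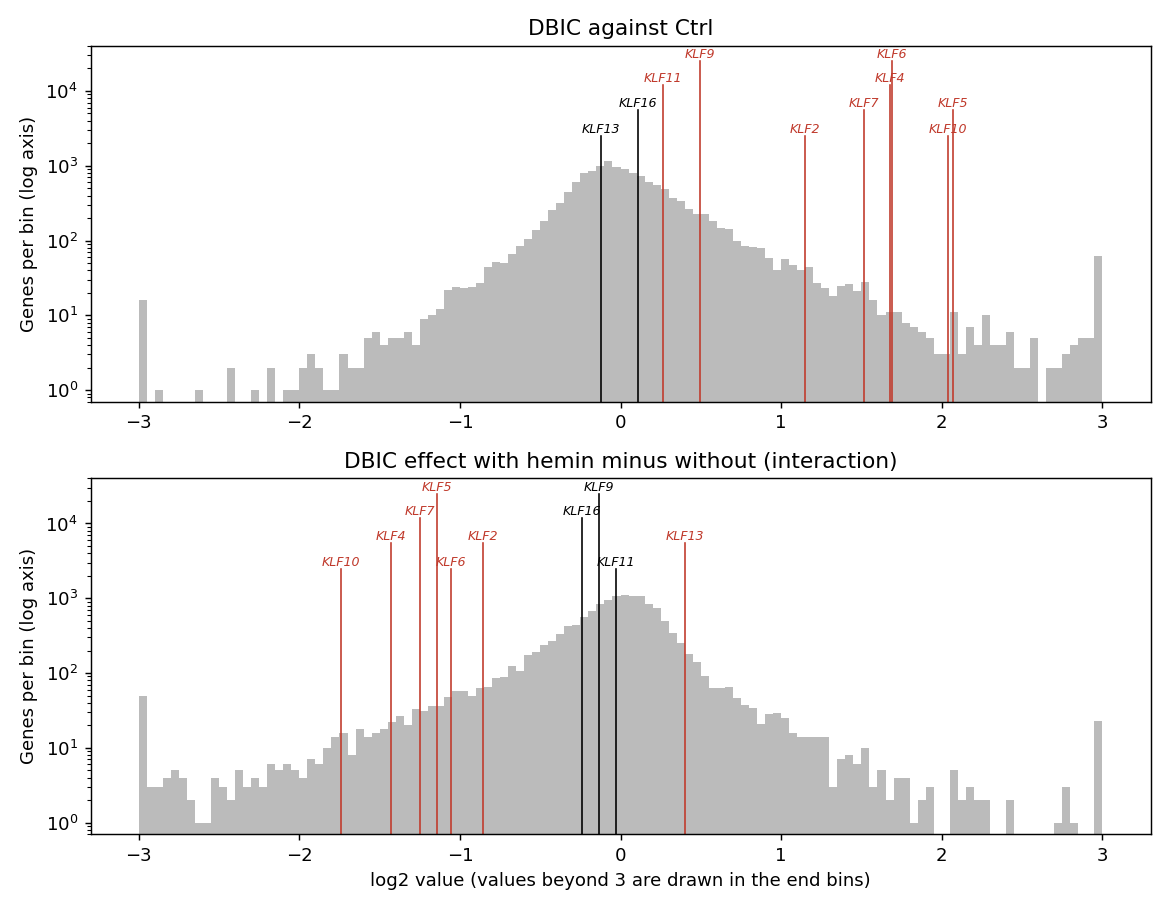
Histograms of the log2 fold change with DBIC (upper) and of the interaction (lower) over the 14287 genes tested (vertical log axis, genes per bin), with a line for each KLF gene, red where called. KLF10 lies at 2.04 in the upper panel and at -1.74 in the lower.

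Of the other 8 KLF genes, 5 passed the filter. With DBIC 1 of these 5, KLF3, rose and 0 fell, where 20.0% of all genes tested rose and 17.2% fell. KLF3, a repressor that binds CTBP proteins, was at 34.1 to 36.3 CPM in Ctrl, 60.4 to 64.3 CPM with DBIC, 34.4 to 36.0 CPM with hemin and 50.9 to 56.0 CPM with both. Its log2 fold change with DBIC was 0.85 (adjusted p = 1.83e-07 by edgeR) and with both agents against DBIC -0.23 (adjusted p = 0.00387). With both agents against Ctrl 1 of the 5 was higher and 2 were lower, where 5.66% of all genes tested were higher and 6.74% lower. KLF3 was the higher gene (0.63), and no alternative of the 19 lost this call. KLF12 (-0.26) and KLF15 (-0.52) were lower, calls lost in 5 and 9 of 19 alternatives. The interaction of KLF3 was -0.25, a call lost in 8 of 18 alternatives. KLF12 was not called with DBIC, and it fell by 0.44 on the log2 scale when hemin was added to DBIC (adjusted p = 0.000785) and by 0.31 with hemin alone (adjusted p = 0.0369, a call lost in 11 of 19 alternatives), with an interaction of -0.13 (adjusted p = 0.454). KLF12, KLF14, KLF15 and KLF17 had values of 0.17, -0.21, -0.33 and -0.86 with DBIC (adjusted p = 0.0801, 0.253, 0.1 and 0.14). KLF8 and KLF18 had 0 counts in every library and KLF1 at most 4. The SP genes share the zinc finger domain, and 6 of the 9 passed the filter. SP3 had a log2 fold change of 0.13 with DBIC (adjusted p = 0.0139) and SP4 one of 0.21 (adjusted p = 0.0175). Both calls were lost with upper-quartile scaling (adjusted p = 0.164 and 0.0623), SP3 also without DBIC replicate 2 (0.0625) and SP4 with only the groups compared in the fit (0.0529) and without Ctrl replicate 2 (0.0698) or DBIC replicate 1 (0.0693). SP1, SP2, SP6 and SP8 had values of -0.065, 0.036, 0.95 and 0.80 (adjusted p = 0.424, 0.63, 0.299 and 0.0815).

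Genes known to act on KLF genes or proteins were counted in the same fit, where 20.0% of all genes tested rose and 17.2% fell with DBIC, with a median log2 fold change of -0.0082. Of the 8 genes of the ERK5 and MEF2 pathway, which induces KLF2 and KLF4 in endothelium, 5 rose and 0 fell with DBIC, with a median of 0.43. Among them the transcription factor MEF2C had a log2 fold change of 0.88 (adjusted p = 0.000708 by edgeR) and MEF2A one of 0.61 (adjusted p = 0.00202). MEF2D had one of 0.46 (adjusted p = 0.0318), a call lost with upper-quartile scaling (adjusted p = 0.054) and without any 1 of Ctrl 2, Ctrl 3, DBIC 1 or DBIC 3 (0.06 to 0.105). Of the 9 TGF-beta and SMAD genes 2 rose and 0 fell, with a median of -0.030, a share of risen genes close to that of all genes. TGFB1 had a log2 fold change of 0.21 (adjusted p = 0.00311) and SMAD3 one of 0.10 (adjusted p = 0.048). The SMAD3 call was lost in 13 of 19 alternatives, DESeq2 among them (adjusted p = 0.0607) and each fit without a DBIC or a Hemin library or without Ctrl 1, Ctrl 3 or DBIC+Hemin 2. In 12 of these 13 the list had 1 called gene, and with upper-quartile scaling 1 gene rose and 1 fell. Of the 5 glucocorticoid genes tested 3 rose and 0 fell, with a median of 0.87. The phosphatase DUSP1 rose by 3.10 (adjusted p = 5.11e-10), the clock gene PER1 by 1.02 (adjusted p = 8.87e-07) and TSC22D3 by 0.87 (adjusted p = 0.000139). When hemin was added to DBIC, 0 of the 5 rose and these 3 fell, where 13.5% of all genes tested rose and 18.4% fell. With hemin alone TSC22D3 was called higher than Ctrl (0.65, a call lost in 1 of 19 alternatives). DUSP1, PER1 and TSC22D3 are also induced by other signals. FKBP5 was not called, at -0.36 with DBIC (adjusted p = 0.201) and 0.51 with both agents against DBIC (adjusted p = 0.0892 by edgeR). The receptor gene NR3C1 was not among the genes called. Of the 7 ubiquitin ligases described for KLF proteins 5 rose and 0 fell, with a median of 0.31, SIAH1 by 0.49 (adjusted p = 6.32e-05) and FBXW7 by 0.43 (adjusted p = 0.000331) among them. The count was 3 without DBIC replicate 3, where SMURF1 and SMURF2 lost their calls (adjusted p = 0.0586 and 0.0651), and also 3 with only the groups compared in the fit (0.107 and 0.0841). Over all 19 alternatives SMURF2 lost its call in 11 and SMURF1 in 2. Of the 12 corepressors and coactivators 1 rose and 4 fell, with a median of -0.071. The acetyltransferase EP300 rose by 0.48 (adjusted p = 2.45e-05) and the deacetylase HDAC1 fell by 0.24 (adjusted p = 0.000124). Each list's part in the KLF values was not tested.

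Of 18 genes described as KLF targets, 14 were tested, and 5 rose and 1 fell with DBIC, with a median log2 fold change of -0.012, where 20.0% of all genes tested rose and 17.2% fell. The growth factor gene PDGFA rose by 1.21 (adjusted p = 6.66e-07 by edgeR) and the sphingosine phosphate receptor gene S1PR1, a target of KLF2 in lymphocytes, by 1.11 (adjusted p = 0.000193). ENG was the gene that fell, by 0.33 (adjusted p = 0.000215 by edgeR). Against DBIC alone, cells with both agents had 3 of the 14 targets higher and 5 lower, where 13.5% of all genes tested were higher and 18.4% lower. PDGFA fell by 1.04 and S1PR1 by 1.24 on the log2 scale (adjusted p = 3.17e-06 and 0.000116). ENG was among the 3 higher genes, at 0.40. The cell cycle inhibitor gene CDKN1A, described as a target of KLF4 and KLF6, rose with DBIC by 0.59 (adjusted p = 4.62e-05) and was 0.52 above Ctrl with both (adjusted p = 0.000545). It was also 0.29 above Ctrl with hemin alone (adjusted p = 0.0373, a call lost in 10 of 19 alternatives). Its interaction was -0.36 (adjusted p = 0.0246, lost in 6 of 18), a smaller DBIC effect with hemin.

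The profiles of the members over the 12 libraries were compared by Pearson's r of log2 CPM, as a description, since all points share the 4 groups. KLF5 and KLF6 had an r of 0.995, and KLF13 had values from -0.28 with KLF16 to 0.41 with KLF9. Among 10666 genes outside the family with a mean of at least 5 CPM, the genes most like KLF5 were DGKD (0.996), BTG1 (0.995) and DUSP10 (0.994). Those most like KLF6 were BTG1, RPS6KA3 and NR4A1, each at 0.995, and NR4A1 encodes Nur77. TRA2A was most like KLF4 (0.989), DNAJB11 most like KLF7 (0.989), DKK1 most like KLF9 (0.987) and HIC2 most like KLF10 (0.989). The likest genes of KLF11, KLF13 and KLF16 reached 0.933 (TAF1B), 0.920 (HS6ST1) and 0.893 (FSBP).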

How the data were processed

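RNA was sequenced from 12 libraries of A375 cells, 3 in each of 4 groups taken from the sample labels. The authors deposited read counts per gene that they did not normalize, TPM values scaled by length to one sum per library, and FPKM values scaled by length and depth. The submitters' processing notes name Trim Galore, Subread and featureCounts on the human genome build hg38, without versions. The 10 KLF genes and all lists were chosen with earlier results of these data known.

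The count analysis used edgeR (4.0.16, R 4.3.3) with TMM scaling and filterByExpr, which kept 14287 of 20263 genes. All 12 libraries entered a single quasi-likelihood fit with a mean for each group and 8 residual degrees of freedom. P-values were adjusted by Benjamini-Hochberg over all genes tested. Genes were called at an adjusted p under 0.05, and intervals are 95%. CPM values are TMM scaled. TPM was used to compare the levels of genes in each group and to sum the 10 KLF genes in each library. All 10 KLF genes are named. From each other list up to 3 called genes with the largest changes with DBIC were named, together with all KLF and SP genes tested, and for each member the genes with the highest r. CDKN1A, ENG, HMOX1, SMURF2, NR3C1, FKBP5 and the cell type markers were named outside this rule, after their values were seen. Some genes that the rule names are not reported here. Promoters were read from RefSeq windows. The steps were tested on simulated data. Alternatives were DESeq2 1.42.0, upper-quartile factors, library size only, no filter, at least 10 counts in every library, fits to the compared groups alone, a block for the replicate number, and leaving out each library.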

Additional observations from a re-analysis of the deposited data

Results flagged for a closer look

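The effect of DBIC on 7 of the 10 KLF genes differed between cells with and without hemin, by edgeR's test of the difference itself, where 10.2% of all genes tested had a negative difference past the threshold and 6.40% a positive one. The difference in log2 fold change was -0.86 for KLF2, -1.43 for KLF4, -1.15 for KLF5, -1.06 for KLF6, -1.25 for KLF7 and -1.74 for KLF10, a smaller response with hemin. For KLF13 it was 0.40, in the other direction. With 3 samples per group, single samples far from their group were not tested.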

How the results depend on the processing

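Of the 940 values of single KLF genes under an alternative, 903 kept their direction and side of the threshold, 14 lost a call, 4 gained one and 19 changed sign, all of the last in values that were not called. With upper-quartile scaling KLF11 changed sign against DBIC alone (0.015) and in the interaction (0.025), and with library size only KLF9 did so for both agents against Ctrl (-0.013). Without single libraries, Hemin against Ctrl ranged from -0.12 to 0.053 for KLF2, -0.096 to 0.028 for KLF11 and -0.016 to 0.086 for KLF16. Both agents against Ctrl ranged from -0.0098 to 0.045 for KLF9 and -0.055 to 0.026 for KLF13, and the interaction of KLF11 from -0.073 to 0.051. The count of all genes called for Hemin against Ctrl was 580, 881 with DESeq2, and 272 to 623 without single libraries, lowest without Hemin replicate 2; the cause was not tested. The counts of KLF genes called ranged from 7 to 9 for DBIC against Ctrl over all alternatives.

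With the replicate block, 5084 genes were called for DBIC against Ctrl, 4262 for both agents against DBIC, 408 for Hemin against Ctrl, 1500 for both against Ctrl and 2078 for the interaction, and the KLF genes called numbered 8, 8, 3, 5 and 7, as without it. The deviations of same-numbered libraries correlated at -0.046 to 0.081 over 18 pairs, none over the 0.1 required of every pair, so the numbers were not taken to pair the samples. As a hint from the data and not the design, 8 of 12 libraries were nearest to their own number. For genes of the other lists, chosen for these alternatives after seeing the data, 1590 called values were kept, 178 were lost and 0 changed sign. With 3 libraries per group, the smaller calls of KLF10, KLF11, KLF13 and KLF16 were lost in some fits without a library, and that of KLF16 also with upper-quartile scaling and with only the groups compared, as given beside them.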
